A study of Mus musculus with 12 samples.

Results

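Liver endothelial marker genes were followed here in m6A-immunoprecipitated RNA: the scavenger and uptake receptor genes Stab1, Stab2, Lyve1 and Clec4g, the junction gene Pecam1, the receptor gene Kdr, the phosphatase gene Ptprb and the secreted-protein gene Oit3. Every peak whose deposited annotation holds 1 of these 8 symbols was taken, which gave 27 of 37118 peaks, in 7 genes. Clec4g had no peak in the table and is absent from all values below. The rule for taking peaks uses no measured value, but the members were chosen with earlier results of these data known. The 27 peaks were split as 8 in Ptprb, 6 in Kdr, 4 each in Stab2 and Pecam1, 3 in Oit3 and 1 each in Lyve1 and Stab1, and all 27 passed the filter on low counts.

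The samples were livers of male wild-type C57BL/6 mice, aged 6 to 8 weeks at the start according to the housing protocol, after daily dosing by gavage until day 90. Control animals received 0 mg/kg/day CdCl2 and exposed animals 20 mg/kg/day, and no other agent or allele is named. The labels give 3 control and 3 cadmium samples, numbered 1 to 3, and assign the samples of equal number to 1 batch. RNA fragments that carry N6-methyladenosine (m6A, adenosine with an added methyl group) were enriched by an antibody, sequenced and counted in peaks. The 6 count columns were read as the immunoprecipitated libraries, and their matched input libraries were not analysed here. A difference in peak counts therefore cannot separate the amount of an RNA from its methylated share, and in whole liver fewer cells of a type cannot be told apart from less RNA per cell.

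Liver sinusoids are lined by fenestrated endothelial cells that clear hyaluronan, denatured collagen and other waste from blood through the stabilins STAB1 and STAB2 and related receptors. LYVE1, a hyaluronan receptor first known from lymphatic vessels, is also made by sinusoidal endothelium, and PECAM1 (CD31) sits at endothelial junctions throughout the vasculature. KDR (VEGFR2) is the main signalling receptor for VEGF-A, and PTPRB (VE-PTP) is an endothelial phosphatase that acts on the angiopoietin receptor TIE2 and on VE-cadherin. OIT3 is a secreted zona pellucida domain protein of liver, and CLEC4G (LSECtin) a lectin of sinusoidal endothelium. Some of these genes are not limited to endothelium: Stab1 and Lyve1 are also expressed by some macrophages, and Pecam1 by leukocytes and platelets.

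Counts in peaks totalled 40174736 to 52338612 per sample, and the 27 peaks held 13353 to 22849 of them, or 0.0266% to 0.0446%. The 2 largest peaks of the table took 4.95% to 19.7% of a sample's counts, and levels below are CPM, counts relative to the TMM-scaled library size. Leaving out those 2 peaks before scaling kept every call among the 27. Summed over the 7 genes, the level was 303 to 396 CPM in control and 293 to 428 CPM in cadmium samples, and the groups overlapped. Other endothelial genes had peaks as well, 21 of 27 listed pan-endothelial genes (among them Cdh5, Eng and Plvap) and 15 of 16 listed sinusoidal genes.

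The peaks lay in a few places of each gene, and 1 wide peak often held most of its counts. In the following, peaks are numbered from the low-coordinate end of the gene, positions are on mm10 as deposited, and gene spans are those of RefSeq on GRCm38.p6. Kdr lies on the minus strand, so that its low-coordinate end is the end of the gene. Its largest peak, number 3 (chr5:75933692-75934630, 938 bp), began 0.865 kb from that end and held 69.9% to 77.9% of the gene's CPM in a sample. In all, 5 of the 6 Kdr peaks began within 5 kb of the gene's end, and peak 6 lay 26.4 kb inside it.

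The Ptprb peaks formed clusters at both ends of a gene of 114037 bp. Peak 8 (chr10:116387491-116388310) ended 1.23 kb before the high-coordinate end and held 44.8% to 55.8% of the gene's CPM. The 3 Oit3 peaks all began within 5 kb of the low-coordinate end, and peak 1 (chr10:59423539-59424074) held 63.8% to 71.1%. The Lyve1 peak (chr7:110851429-110852276, 847 bp) began 0.822 kb from the low-coordinate end of its gene. Pecam1 and Stab2 had no dominant peak: their largest held at most 45.0% and 42.9%. Exon, intron and UTR positions were not assigned, because no transcript models were used.

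**Figure D1:**
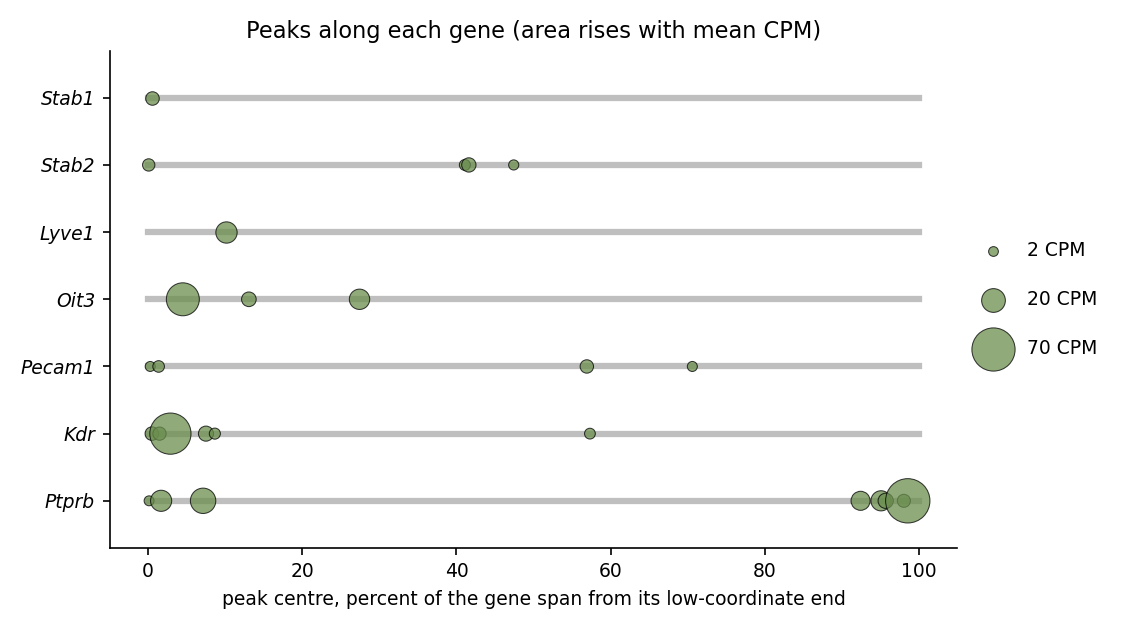
Positions of the 27 peaks, with the peak centre as a percentage of the gene span from its low-coordinate end on the x axis and the 7 genes as rows; grey bars are the gene spans and circle area rises with the mean CPM of the peak. The large circles of Kdr and Oit3 sit near the low-coordinate end and that of Ptprb near the high-coordinate end, while the Stab2 and Pecam1 circles are small. Stab2 has 1 circle at the low-coordinate end and the others at 41.1% to 47.4% of the gene. The Pecam1 circles run from 0.27% to 70.6%.

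Of the 27 peaks, 4 carry another symbol too, and with the strand of counting not given their reads cannot be assigned to 1 gene. The only Stab1 peak (chr14:31139019-31139275) began 0.0020 kb from the end of Stab1, a minus-strand gene, and overlapped the end of the neighbour Nt5dc2 at 31139124. The other Nt5dc2 peak stood at 4.08 CPM in control and 3.73 CPM in cadmium samples (means of 3, log2 change -0.13, SE 0.24, adjusted p = 0.802). Stab2 peak 1 is shared with the predicted gene Gm16268, peak 2 with Gm16280 and Gm16270 and peak 3 with Gm16270, while peak 4 carries Stab2 alone. All values of Stab1 and of these 3 Stab2 peaks are uncertain in that respect.

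Between the groups, 1 of the 27 peaks was called at a Benjamini-Hochberg adjusted p below 0.05 (edgeR quasi-likelihood test over all 37088 tested peaks), the Lyve1 peak, which rose. Over all tested peaks 6.27% were called, 3.55% as higher and 2.72% as lower, so a count of 1 in 27 is near the background. The log2 change was above 0 at 23 of the 27 peaks, against 49.6% of all tested peaks, and its median was 0.22, against -0.0031 over all tested peaks. Without cadmium replicate 1 the median was 0.082, with 18 peaks above 0, and without cadmium replicate 3 it was 0.36, with 27 above 0. Peaks of 1 gene share their RNA and are not independent. The changes ran from -0.069 to 1.17, and the 26 uncalled peaks had adjusted p of 0.261 to 0.992. In 3 peaks, those of Lyve1, Ptprb peak 3 and Stab2 peak 1, every cadmium sample lay above every control sample, as in 14.4% of all tested peaks, and in 0 peaks every cadmium sample lay below, as in 12.5%. At an unadjusted p below 0.05 the count was again 1 of 27, against 21.8% of all tested peaks. Summed per gene, 1 of the 7 genes was called, Lyve1, where 10.2% of all 13050 genes were called, and it was the 1 of 7 without overlap between groups, where 16.9% of genes had every cadmium sample above every control.

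**Figure D2:**
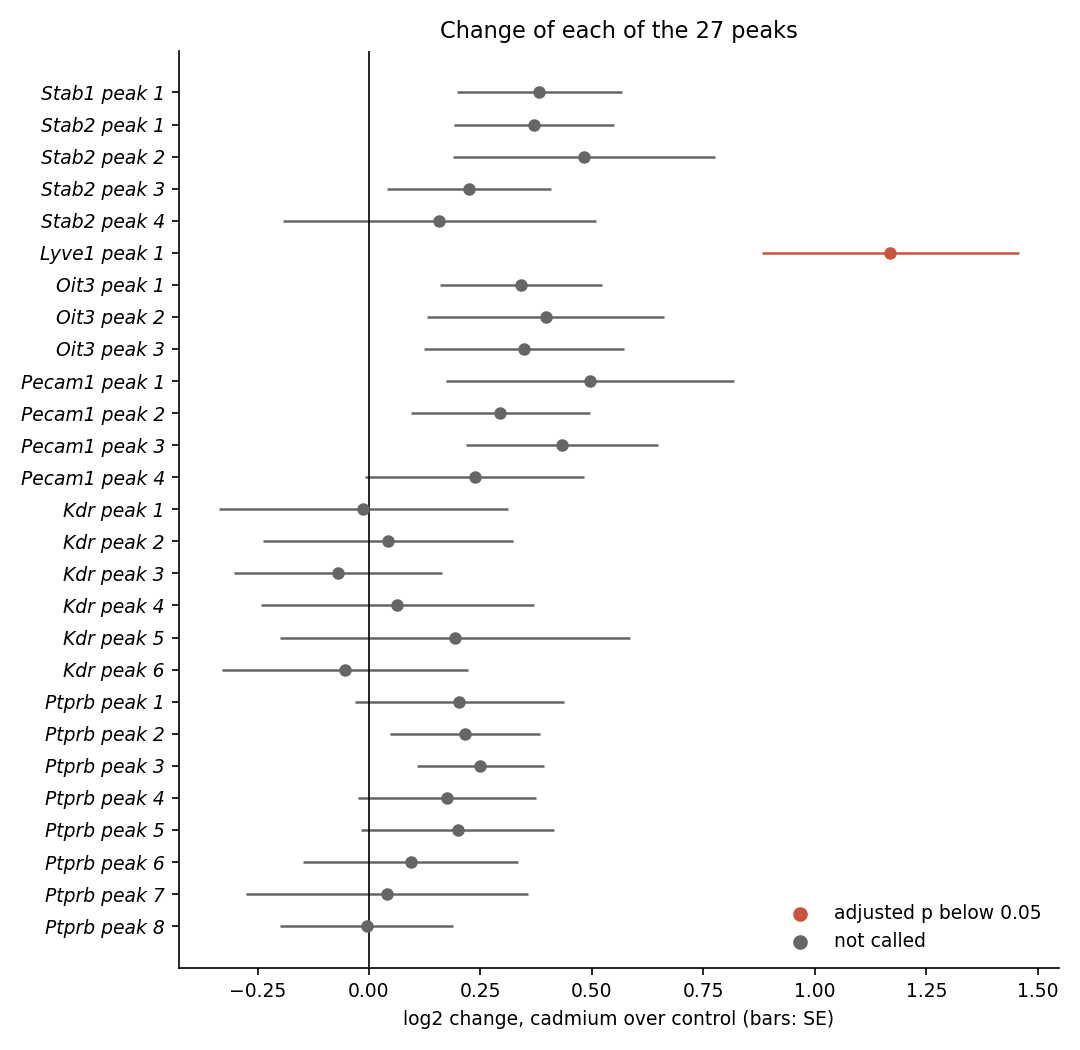
Log2 change of cadmium over control for each of the 27 peaks, grouped by gene and numbered from the low-coordinate end; points are edgeR estimates and bars their standard error. The Lyve1 peak at 1.17 is the only called peak, and the other 26 lie between -0.069 and 0.50.

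Lyve1 was the only gene of the 7 that passed the test, a share near that of all genes, and the call depended on most of the samples. Its single peak stood at 5.05, 11.6 and 12.6 CPM in control replicates 1, 2 and 3 and at 23.4, 24.0 and 18.2 CPM in cadmium replicates 1, 2 and 3. The groups did not overlap, and control replicate 1 was the lowest sample. Mean levels were 9.73 ± 4.08 CPM (control) and 21.9 ± 3.15 CPM (cadmium; SD, n = 3), a 2.25-fold rise (log2 change 1.17, SE 0.29, adjusted p = 0.0390). Behind these levels were 248, 580 and 555 raw counts in control and 988, 1326 and 838 in cadmium replicates 1, 2 and 3. Within batches 1, 2 and 3 the log2 difference of cadmium over control was 2.104, 1.02 and 0.52, above 0 in 3 of 3 batches. The call was kept with the batch as a block (log2 change 1.25, adjusted p = 0.0323), a fit in which 8.47% of all peaks were called, 4.64% as higher. By gene sums with the block, 1 of 7 genes was called, where 6.37% of all genes were called as higher.

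The rise kept its direction without each sample in turn, with log2 changes of 0.86 to 1.40, but the call was kept only without control replicate 1 (adjusted p = 0.0267, log2 change 0.86). It was lost without control replicate 2 (adjusted p = 0.0556), control replicate 3 (0.0538), cadmium replicate 1 (0.0880), cadmium replicate 2 (0.0820) and cadmium replicate 3 (0.0826), fits with 5 samples. In the authors' deposited table the same peak has a log2 fold change of 1.16 and an adjusted p of 0.000734 and is marked Up, as are 2.66% of peaks there, and the other 26 peaks are not called in the authors' deposited table.

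The share of the 27 peaks' raw counts that lay in the Lyve1 peak needs no scaling between samples. It sets Lyve1 against the counts of the other members, so it also moves with them and is a different comparison from CPM. It was 1.76%, 2.96% and 4.05% in control and 5.66%, 5.80% and 6.28% in cadmium replicates 1, 2 and 3. The exact 95% binomial intervals, which cover counting error only, reached at most 4.40% in a control sample (replicate 3) and no less than 5.32% in a cadmium sample (replicate 1). The 3 control samples differed from each other more than the 3 cadmium samples did. This share uses the same counts as the call of the peak and is not separate evidence for it. Over the table, spread between samples of a group exceeded counting error by far (chi-square per degree of freedom 31.9 to 161).

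The stabilin genes stood higher on average in cadmium samples but were not called. The Stab1 peak was at 4.54, 5.20 and 4.26 CPM in control and 6.24, 7.04 and 4.96 CPM in cadmium replicates 1, 2 and 3 (log2 change 0.38, SE 0.19, adjusted p = 0.261). Cadmium replicate 3 fell inside the control range, and the within-batch log2 differences were 0.42, 0.40 and 0.20. Stab2, the main receptor for clearance of hyaluronan from blood, was summed over its 4 peaks, at 14.6, 12.5 and 16.2 CPM in control and 22.9, 14.7 and 15.4 CPM in cadmium replicates 1, 2 and 3 (log2 change 0.29, SE 0.19, adjusted p = 0.376). Only cadmium replicate 1 stood above all controls, and without it the log2 change was 0.072. Stab2 peak 1, near the end of the gene, had no overlap between groups, at 3.44, 3.51 and 4.01 CPM in control and 5.30, 4.78 and 4.09 CPM in cadmium replicates (log2 change 0.37, SE 0.18, adjusted p = 0.261). The unshared peak 4 had a log2 change of 0.16 (SE 0.35), and with shared peaks left out of the sum the change was 0.14 (adjusted p = 0.850).

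Oit3 and Pecam1 had similar patterns, with cadmium replicates 1 and 2 above all controls and cadmium replicate 3 among them. Summed over its 3 peaks, Oit3 stood at 46.4, 63.3 and 55.7 CPM in control and 75.6, 79.8 and 52.8 CPM in cadmium replicates 1, 2 and 3 (log2 change 0.33, SE 0.18, adjusted p = 0.266). Its 3 peaks had log2 changes of 0.34, 0.40 and 0.35. Summed over 4 peaks, Pecam1 stood at 10.6, 12.5 and 12.3 CPM in control and 16.9, 17.1 and 11.2 CPM in cadmium replicates 1, 2 and 3 (log2 change 0.36, SE 0.18, adjusted p = 0.246), with peak changes of 0.24 to 0.50. Neither gene was called, and their within-batch log2 differences were 0.70, 0.33 and -0.078 for Oit3 and 0.65, 0.44 and -0.12 for Pecam1 in batches 1, 2 and 3.

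Kdr, the VEGF receptor gene, was not called, and its batches kept their order in both groups. Its 6 peaks summed to 83.3, 120.0 and 69.1 CPM in control and 92.7, 107 and 62.1 CPM in cadmium replicates 1, 2 and 3, so that replicate 2 was highest and replicate 3 lowest in both groups. The group means were 90.8 ± 26.3 and 87.4 ± 23.1 CPM (SD, n = 3), with no call (log2 change -0.055, SE 0.24, adjusted p = 0.910). With the batch as a block the residual SD of log2 CPM went from 0.404 to 0.126 and the log2 change was -0.053 with an SE of 0.11 (adjusted p = 0.784). For Stab1 the residual SD was 0.190 without and 0.0888 with the block, and for the other 5 genes it was 0.230 to 0.491 without and 0.242 to 0.573 with it.

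Ptprb, summed over 8 peaks, stood at 138, 170.4 and 148 CPM in control and 189, 165 and 128 CPM in cadmium replicates 1, 2 and 3 (log2 change 0.082, SE 0.16, adjusted p = 0.779), with the cadmium samples spread on both sides of the controls. Its largest peak, number 8, was at 59.5, 93.7 and 68.7 CPM in control and 81.9, 78.9 and 60.3 CPM in cadmium replicates (log2 change -0.0050, adjusted p = 0.992). Ptprb peak 3, 7.88 kb from the low-coordinate end, was at 19.8, 20.5 and 23.0 CPM in control and 25.9, 25.9 and 23.4 CPM in cadmium replicates (log2 change 0.25, SE 0.14, adjusted p = 0.345). The lowest cadmium sample of peak 3 lay just above the highest control.

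No difference in change between peaks of 1 gene was detected. The spread between the lowest and the highest log2 change of a gene's peaks was 0.056 in Oit3 and 0.25 to 0.32 in Ptprb, Pecam1, Kdr and Stab2. Tested against the other peaks of its gene (edgeR diffSpliceDGE, member peaks set under the member), 0 of 25 peaks departed at an adjusted p below 0.05 and 0 at an unadjusted p below 0.05, and the lowest unadjusted p was 0.523. Over all peaks 0.0833% departed by that test, no other tool was run, and Lyve1 and Stab1 have no second peak to compare.

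**Figure D3:**
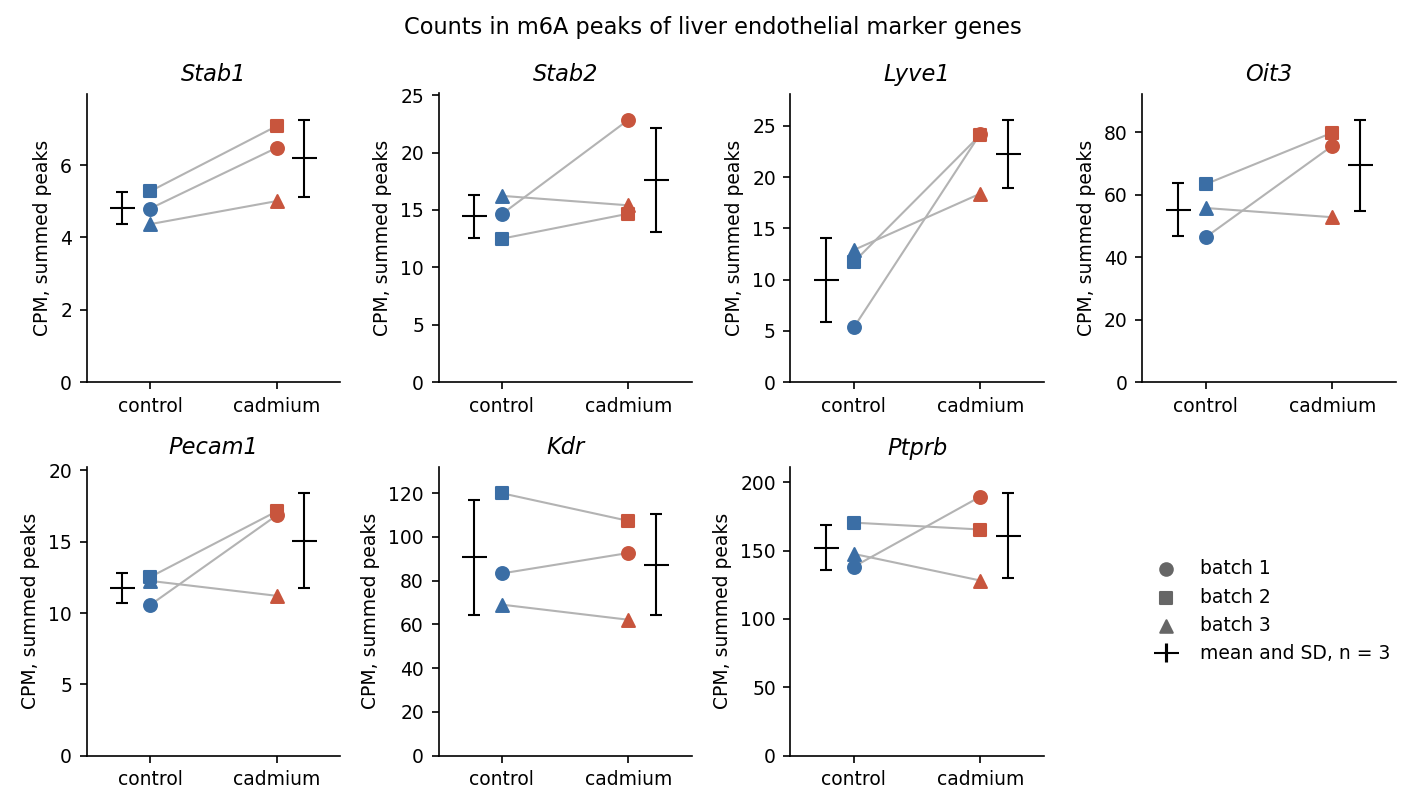
Summed CPM of each gene's peaks (y axis, from 0) in control and cadmium samples, with points as samples, shapes as batches, grey lines joining the samples of a batch, and short black marks with bars for the mean and SD of 3 samples. The 3 cadmium samples of Lyve1 lie above all its controls, while in Kdr the batches keep their order in both groups.

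Within batch 3 most of the 27 peaks were lower in the cadmium sample, unlike within batches 1 and 2. Within batch 1, 25 of the 27 peaks were higher in the cadmium sample, with a median log2 difference of 0.51. Within batch 2 the figures were 20 peaks and 0.22, and within batch 3 they were 8 peaks and -0.13. Over all tested peaks the median was between -0.0097 and 0.0080 in each batch. By gene sums, Stab1 and Lyve1 were higher in the cadmium sample of all 3 batches, and Stab2, Pecam1, Kdr, Oit3 and Ptprb were lower in that of batch 3. Kdr and Ptprb were also lower in the cadmium sample of batch 2 (log2 differences -0.16 and -0.043). The lean of the 27 peaks towards higher values thus did not hold in every batch, and each batch holds 1 sample per group.

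Levels of different genes were set side by side per kb of peak. In control samples Ptprb (55.6 CPM per kb of peak), Kdr (51.2) and Oit3 (48.4) were highest, with sample ranges that overlapped one another (50.5 to 62.3, 38.9 to 67.7 and 40.7 to 55.6 CPM per kb). Stab1 (18.8 CPM per kb) and Pecam1 (18.1) followed, below these 3 in every sample and overlapping each other. Lyve1 (11.8 CPM per kb, 6.29 to 15.2 over samples) and Stab2 (9.10, 7.87 to 10.2) were lowest and overlapped.

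In cadmium samples Oit3 (60.9 CPM per kb of peak), Ptprb (58.9) and Kdr (49.3) again led with overlapping ranges. Lyve1 (26.3 CPM per kb, 21.7 to 28.6 over samples) came next, overlapping Stab1 (24.2, 19.5 to 27.6) and Pecam1 (23.2, 17.3 to 26.4). Stab2 was lowest (11.1 CPM per kb, 9.24 to 14.4 over samples), below every Lyve1 sample. Lyve1 thus stood beside Stab2 in controls and beside Stab1 and Pecam1 in cadmium samples. Peak widths follow the authors' peak calling, which sets this scale.

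The genes whose pattern over the 6 samples was most like the mean centred log2 CPM of the 7 genes were Ceacam2, Hexim2, Sh3tc1, Zkscan8 and Chrnb2, with Pearson's r of 0.983, 0.981, 0.979, 0.973 and 0.971. They were the closest of 12815 genes with a mean of at least 1 CPM. With 6 samples and so many genes, high values of r arise readily, no test was made, and the log2 changes of these 5 genes were 0.19 to 0.32 with 0 of 5 called.

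Other endothelial genes were read by the same test on counts summed per gene, in which 10.2% of all 13050 genes were called, 5.98% as higher and 4.18% as lower. At an unadjusted p below 0.05 the share was 26.7% of genes, and DESeq2 called 15.2% of those it gave an adjusted p. Of 15 other sinusoidal genes with a peak (Mrc1, Fcgr2b, Dnase1l3, Gpr182 and others), 0 rose and 0 fell by edgeR, 0 had an unadjusted p below 0.05 and 0 were called by DESeq2. Their median log2 change was 0.13, against -0.0029 over all genes. The 2 most abundant, the protease gene Ctsl and the lipid phosphatase gene Plpp3, had log2 changes of 0.24 (SE 0.12) and -0.12 (SE 0.16). Of 21 pan-endothelial genes 1 rose and 0 fell by edgeR, 4 had an unadjusted p below 0.05 and DESeq2 called 2, with a median of 0.15. By gene sums the log2 change was above 0 at 6 of the 7 members, against 49.6% of all genes. It was above 0 at 17 of the 21 pan-endothelial genes, 10 of the 15 sinusoidal genes and 4 of 8 VEGF genes. Among the markers of other cells it was above 0 at 12 of 13 stellate and 4 of 11 hepatocyte genes.

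Plvap, which encodes the protein of endothelial fenestral and caveolar diaphragms, was the gene that rose. It stood at 125, 130.3 and 113 CPM in control and 183, 211 and 209 CPM in cadmium replicates 1, 2 and 3, with no overlap (log2 change 0.71, SE 0.12, adjusted p = 0.00812), and the call was kept without each of the 6 samples in turn. The summed level of the pan-endothelial list was 535 to 689.8 CPM in control and 657 to 774 CPM in cadmium samples. That of the other sinusoidal list, to which Ctsl, Plpp3 and Ehd3 contribute most, was 1494 to 1644 CPM in control and 1562 to 1750 CPM in cadmium samples. Both overlapped between groups, as did the sums of the VEGF, angiopoietin and TIE, central and transcription factor lists below. Those of hyaluronan and scavenger genes did not (559 to 589 CPM in control, 617 to 697 CPM in cadmium samples). Nor did those of portal genes (59.1 to 75.6 and 83.2 to 100.4 CPM) and leukocyte adhesion genes (53.5 to 69.5 and 72.2 to 92.9 CPM). Sums were not tested. The hyaluronan list holds the members Lyve1, Stab1 and Stab2, and the VEGF list holds Kdr beside Vegfa, its most abundant gene. The angiopoietin and TIE sum was 142 CPM in control replicate 1, of which the member Ptprb held 138 CPM. Of single gene sums, 16.9% had every cadmium sample above every control. The Kupffer and stellate sums below stand beside the same share.

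Among VEGF ligands and receptors, which include the member Kdr, 1 of 8 rose and 0 fell. Over all genes 5.98% were called as higher and 4.18% as lower by edgeR. An unadjusted p below 0.05 was found at 2 of the 8, beside 26.7% of all genes. Vegfc, a ligand of the lymphatic receptor FLT4, stood at 7.46, 9.65 and 9.68 CPM in control and 15.1, 12.5 and 13.1 CPM in cadmium replicates 1, 2 and 3 (log2 change 0.60, SE 0.16, adjusted p = 0.0417). The groups did not overlap, but the call was lost without any 1 of the 6 samples (adjusted p 0.0516 to 0.125), with the batch as a block (adjusted p = 0.0630) and when scaled by library totals alone (adjusted p = 0.0852). The receptor genes Flt1 and Flt4 had log2 changes of -0.14 and 0.26, and the ligand gene Vegfa, which hepatocytes also make, -0.22 (adjusted p = 0.425). In the angiopoietin and TIE list 0 of 3 genes with a peak were called by edgeR or by DESeq2 and 0 had an unadjusted p below 0.05: Tek, the gene of TIE2, had a log2 change of 0.20 (SE 0.23) beside that of Ptprb given above, the ligand gene Angpt1 had 0.62 (adjusted p = 0.281), and Tie1, Angpt2, Angptl1 and Svep1 had no peak.

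Genes of hyaluronan handling and scavenging rose at 3 of 13 and fell at 0, with Lyve1 itself as 1 of the 3. Over all genes 5.98% were called as higher and 4.18% as lower by edgeR. An unadjusted p below 0.05 was found at 4 of the 13, beside 26.7% of all genes. The members Stab1 and Stab2 are also among the 13. Msr1, the class A scavenger receptor gene of macrophages and sinusoidal cells, stood at 14.5, 16.8 and 12.0 CPM in control and 32.5, 25.3 and 24.8 CPM in cadmium replicates 1, 2 and 3 (log2 change 0.93, SE 0.17, adjusted p = 0.0109), and its call was kept without each sample in turn. Cd44, the widely expressed hyaluronan receptor gene, stood at 9.76, 10.2 and 9.73 CPM in control and 14.8, 15.3 and 17.5 CPM in cadmium replicates 1, 2 and 3 (log2 change 0.68, SE 0.13, adjusted p = 0.0142), and its call was lost without cadmium replicate 3 (adjusted p = 0.0834). The groups did not overlap in either gene. The hyaluronidase genes Hyal1 and Hyal2 had log2 changes of 0.16 (adjusted p = 0.419) and 0.18 (adjusted p = 0.427). Both CD44 and MSR1 are made by leukocytes as well as by endothelium.

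Endothelial genes zoned along the lobule were split by side. Of 6 portal genes, 1 rose and 0 fell: Ntn4, which encodes netrin 4, stood at 19.9, 21.2 and 23.1 CPM in control and 38.7, 32.8 and 25.8 CPM in cadmium replicates 1, 2 and 3 (log2 change 0.60, SE 0.16, adjusted p = 0.0442), and the call was kept only without cadmium replicate 3 (adjusted p 0.0421 to 0.107 over the 6 leave-outs). It was also lost with the batch as a block (adjusted p = 0.0667) and with library totals alone (adjusted p = 0.0803). Of the 6 portal genes 3 had an unadjusted p below 0.05, DESeq2 called 1 and all 6 had a log2 change above 0. Of 6 tested central genes 0 were called by edgeR or DESeq2, 0 had an unadjusted p below 0.05 and 4 lay above 0. Over all genes 5.98% were called as higher and 4.18% as lower by edgeR, and 15.2% were called by DESeq2. An unadjusted p below 0.05 was found at 26.7% of all genes, and 49.6% lay above 0. Thbd (thrombomodulin) and Rspo3 (an R-spondin that amplifies WNT signals), the 2 most abundant, had log2 changes of 0.21 (SE 0.17) and 0.35 (SE 0.16). The medians were 0.34 for portal and 0.12 for central genes, and the difference between the sides was not tested.

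Of 14 endothelial transcription factor genes 0 were called by edgeR, 2 had an unadjusted p below 0.05 and DESeq2 called 1, beside 26.7% and 15.2% of all genes. The 2 most abundant, Prox1, a lymphatic regulator that hepatocytes also express, and Maf, had log2 changes of -0.35 (adjusted p = 0.209) and 0.42 (adjusted p = 0.0850). Of 3 leukocyte adhesion genes with a peak 0 were called by edgeR, 3 had an unadjusted p below 0.05 and DESeq2 called 2, against the same shares of all genes. Icam1 and Selp, the 2 most abundant, had log2 changes of 0.55 (SE 0.19, adjusted p = 0.1003) and 0.42 (SE 0.16, adjusted p = 0.130).

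**Figure D4:**
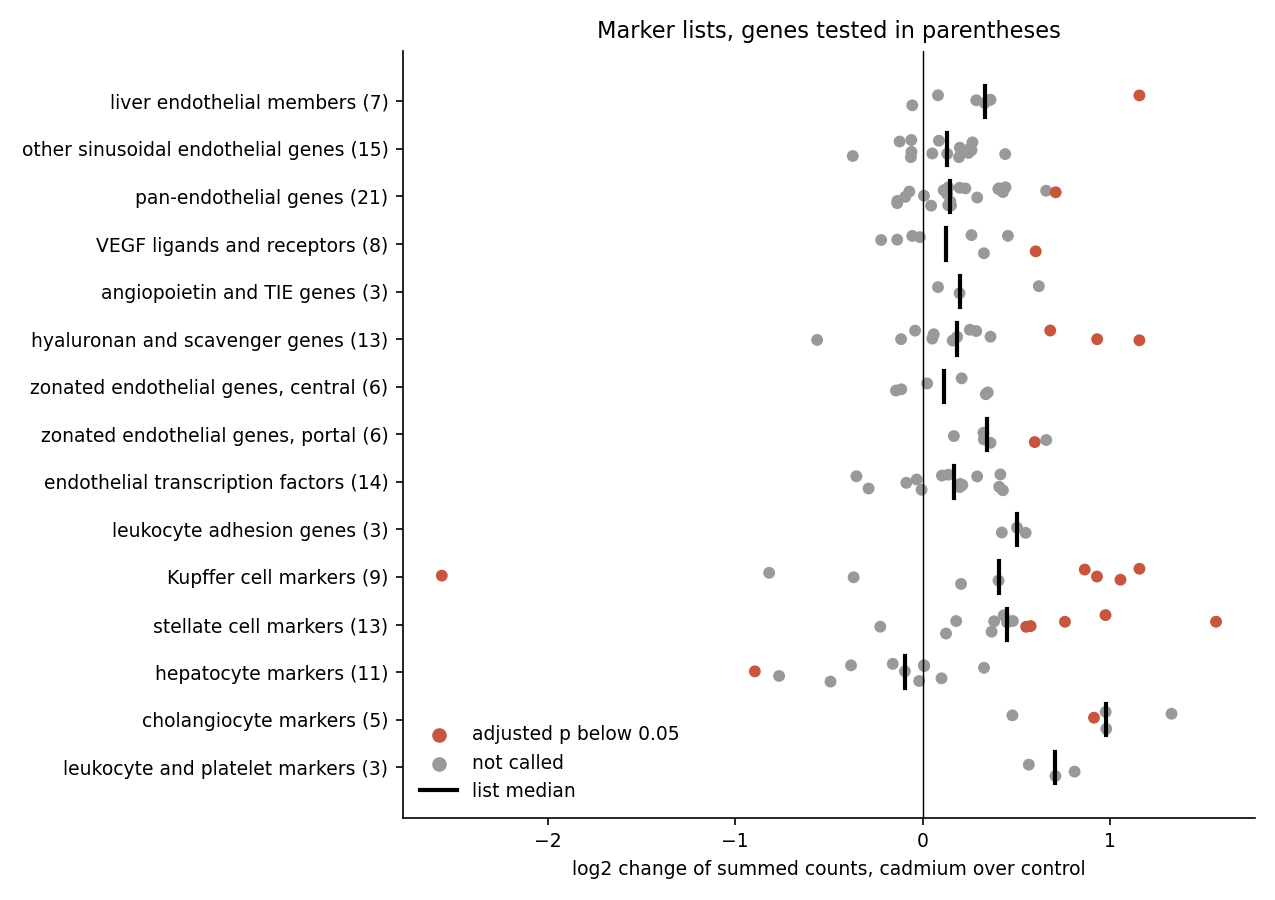
Log2 change of summed counts for the genes of each list (x axis, 1 point per gene, called genes in red, black bars for list medians). Called genes of the endothelial lists lie at 0.60 or above, and the Kupffer, stellate and biliary lists have medians of 0.41, 0.45 and 0.98.

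Markers of other liver cells moved too, and these values stand beside the rise of Lyve1, which some macrophages also express. Kupffer cell markers rose at 4 of 9 and fell at 1, beside 5.98% of all genes called as higher and 4.18% as lower by edgeR. In either direction, 7 of the 9 had an unadjusted p below 0.05, beside 26.7% of all genes. The complement genes C1qb (log2 change 1.16, SE 0.19, adjusted p = 0.00750) and C1qc (log2 change 1.06) rose, as did Cd5l (0.93, adjusted p = 0.0404) and C1qa (0.87, adjusted p = 0.0179), while the haemoglobin scavenger receptor gene Cd163 fell (-2.57). The call of Cd5l was lost without control replicate 1 or 3 or cadmium replicate 2 or 3 (adjusted p up to 0.115), and that of C1qa without cadmium replicate 3 (adjusted p = 0.0696). The macrophage receptor genes Vsig4 (log2 change -0.82, adjusted p = 0.142) and Marco (-0.37, adjusted p = 0.530) were not called, so 3 of the 9 markers lay below 0. Clec4f, the defining Kupffer lectin gene, stood at 93.3, 94.2 and 72.9 CPM in control and 98.6, 119.8 and 81.9 CPM in cadmium replicates 1, 2 and 3 (log2 change 0.21, adjusted p = 0.462), and Timd4, Adgre1, Cd68 and Folr2 had no peak. The summed level of the 9 genes, to which Clec4f, Cd5l and C1qa contribute most, was 256 to 374 CPM in control and 436 to 542 CPM in cadmium samples, with no overlap. Their part in the Lyve1 result was not tested.

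Stellate cell markers rose at 5 of 13 and fell at 0, beside 5.98% of all genes called as higher and 4.18% as lower by edgeR. An unadjusted p below 0.05 was found at 8 of the 13, beside 26.7% of all genes. The genes called were Colec11 (0.55, adjusted p = 0.0433), the neurotrophin receptor gene Ngfr (log2 change 1.57, SE 0.12, adjusted p = 0.000738), Rgs5 (0.98, adjusted p = 0.0175), Pdgfrb (0.76, adjusted p = 0.0426) and Lrat (0.58, adjusted p = 0.0341). The calls of Rgs5 (without control replicate 3 or cadmium replicate 3), Pdgfrb (without control replicate 1 or 3 or cadmium replicate 1 or 3) and Lrat (in all leave-outs but that without control replicate 2) were lost. That of Colec11 was lost without control replicate 1 or 3 or cadmium replicate 2 or 3 (adjusted p up to 0.133). That of Pdgfrb was also lost with the batch as a block (adjusted p = 0.0633), and those of Pdgfrb, Lrat and Colec11 with library totals alone (adjusted p = 0.0700, 0.0818 and 0.0978). Their summed level was 349 to 445 CPM in control and 514 to 559 CPM in cadmium samples, with no overlap. Hepatocyte markers rose at 0 of 11 and fell at 1, Pck1 (-0.90, adjusted p = 0.0174, lost without cadmium replicate 3). Of the 11, 4 had a log2 change above 0, 2 had an unadjusted p below 0.05, and the median was -0.094. Their sum, which includes Pck1, was 35287 to 36843 CPM in control and 30212 to 35157 CPM in cadmium samples. The lowest control thus lay just above the highest cadmium sample, and Apob, Alb and Apoa1 contribute most to the sum. Biliary markers rose at 1 of 5, Pkhd1 (0.91, adjusted p = 0.0306, kept only without cadmium replicate 2), and Krt19, Krt7 and Cftr had no peak. All 5 had an unadjusted p below 0.05 by edgeR and a log2 change above 0. Their sum was 111 to 145 CPM in control and 117 to 349 CPM in cadmium samples and overlapped. Of 3 leukocyte and platelet markers with a peak 0 were called by edgeR or DESeq2 and 2 had an unadjusted p below 0.05, and the sum was 2.97 to 4.02 CPM in control and 4.34 to 6.44 CPM in cadmium samples, with 7 of 10 listed genes without a peak. The part of these cell types in the Lyve1, Plvap and Msr1 results was not tested.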

How the data were processed

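Per the labels' protocols, fragmented liver RNA was immunoprecipitated with an anti-m6A antibody and sequenced in read pairs from Ovation SoLo libraries. Per the submitters' processing notes, mm10 was the build, and the tools named were MACS2 2.1.1, STAR 2.7.1a, cutadapt 1.1.8, DESeq2 4.1.0 (a version as those notes have it) and SAMtools 1.3.1. Tool settings, and whether peaks were called per sample or on pools, were not given in the sources used here. Deposited counts are raw whole numbers per peak. The authors' deposited log2 fold changes, p-values and adjusted p-values were used for comparison only. Positions are printed as deposited, whether counted from 0 or 1 being not stated. The column headings fit both the immunoprecipitated and the input library of a sample and were read as the former. Of the 37118 peaks, 4551 carry more than 1 symbol, and peaks with no symbol held 2.18% to 2.77% of counts.

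Peak and gene counts went into edgeR 4.0.16 under R 4.3.3 (TMM, filterByExpr with minimum count 10 and minimum total 15, quasi-likelihood F test of group, Benjamini-Hochberg over all peaks or genes) and, as an alternative, DESeq2 1.42.0. SE is the absolute log2 change over the square root of F. Gene sums add all peaks that carry a symbol. Within-batch differences use log2 of CPM plus 0.5. The scripts were tested on simulated data. Members and lists were chosen with earlier results of these data known. Named genes were all member peaks and sums, and in each list the called genes (at most 4, by size of change) or, with none called, the 2 most abundant; a few further genes were named after their values were seen. The labels set replicates 1, 2 and 3 as batches 1, 2 and 3, which pairs the samples: deviations from group means correlated at 0.160, 0.232 and 0.196 within batches and at -0.190 to 0.0175 across them. Replicates are not said to be separate mice (the protocol gives 6 per group), so p-values measure the spread between these samples. No pair agreed within sampling noise (chi-square per degree of freedom 31.9 to 161).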

Additional observations from a re-analysis of the deposited data

How the results depend on the processing

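The Lyve1 peak was called under all 7 alternatives to normalisation, filter, test and block (log2 change 1.16 to 1.25, adjusted p 0.000746 to 0.0478), and no other peak of the 27 was called under any of them. Leaving out 1 sample gave 0 to 1 called peaks of the 27, 0 to 1 called genes of the 7 by summed counts, and 543 to 1977 called peaks over the whole table, against 2325 with all samples and 3710 by DESeq2. The lowest of these counts were without cadmium replicate 3 (543) and without control replicate 3 (1079). With the replicate block 3143 peaks were called, and it changed no call among the 27 peaks or 7 gene sums. Within-gene departures were 0 under every alternative run, including that with the peaks set under the member symbol, an alternative chosen after seeing the data. Changes near 0 took the opposite sign under scaling by library totals for Kdr peak 1 (0.036), Kdr peak 6 (0.012), Ptprb peak 8 (0.029) and Kdr sum (0.0018); under a filter of at least 100 counts in 3 samples for Kdr peak 1 (0.0043) and Ptprb peak 8 (0.011); under the replicate block for Ptprb peak 7 (-0.053) and Ptprb peak 8 (0.0074). Over the leave-outs, the log2 changes that crossed 0 ranged as follows: Kdr peak 1 -0.26 to 0.27, Kdr peak 4 -0.17 to 0.36, Kdr peak 6 -0.33 to 0.21, Kdr peak 3 -0.23 to 0.22, Stab2 peak 4 -0.32 to 0.41, Ptprb peak 6 -0.17 to 0.27, Ptprb peak 8 -0.14 to 0.20, Kdr sum -0.22 to 0.20, Kdr peak 2 -0.24 to 0.27, Kdr peak 5 -0.10 to 0.61, Ptprb peak 7 -0.46 to 0.29, Ptprb peak 5 -0.032 to 0.42, Ptprb sum -0.034 to 0.22. The gene sums that kept their sign ranged over the leave-outs from 0.26 to 0.49 for Stab1, 0.072 to 0.41 for Stab2, 0.22 to 0.50 for Oit3 and 0.26 to 0.53 for Pecam1. The cause was not tested. The number of the 27 peaks above 0 was 26 with library totals, 18 without cadmium replicate 1 and 27 without cadmium replicate 3. Scaling by library totals shifted the lists' summed log2 differences up by about 0.06. Spread between samples exceeded counting error by far (chi-square per degree of freedom given above), and depth as a limit was not tested for single peaks.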
